A study of Arabidopsis thaliana with 15 samples.

Results

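The cold-response genes described here are 10 Arabidopsis thaliana genes chosen by locus identifier. They are the transcription factor genes CBF1 (AT4G25490), CBF2 (AT4G25470) and CBF3 (AT4G25480), and the effector genes COR15A (AT2G42540), COR15B (AT2G42530), COR47 (AT1G20440), ERD10 (AT1G20450), KIN1 (AT5G15960), RD29A (AT5G52310) and RD29B (AT5G52300). Of these 10, 8 were among the 21777 genes listed, and 7 passed the filter on low values that left 16335 genes for testing. CBF1, CBF2 and the related genes CBF4, DDF1 and DDF2 were not analysed here, and CBF3 was below the filter. In plants grown without a named cold treatment, 4 of the 7 tested effector genes (COR47, ERD10, KIN1 and RD29A) were lower than wild type in at least 1 of 4 genotypes, and none was higher than wild type in any (limma, adjusted p under 0.05). By the same rule 15.6% of all tested genes were lower in at least 1 of the 4. The COR15 genes passed the test in no comparison.

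RNA was measured in shoots of 12-day-old seedlings, grown on MS medium in days of 16 h light and 8 h dark, in 15 libraries, 3 for each of 5 genotypes including wild-type controls (WT). Single mutants of the RPS6A or RPS6B gene, both coding for the ribosomal protein eS6, are called rps6a and rps6b. Plants with both mutations (rps6a rps6b) carried an eS6A transgene, either eS6A-HA, named for the HA epitope tag, or eS6A-Δ6SA. The alleles, the transgene promoter, the number of transgenic lines and the hour of harvest are not given in the sources used here. Nothing in the labels says that replicates came from separate cultures, so p-values measure the spread between these libraries, which may be technical.

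CBF proteins are transcription factors that cold induces within a short time of exposure. They bind the C-repeat element in the promoters of COR genes, whose products help membranes and proteins withstand freezing and drying. The CBF genes are also under control of the circadian clock, and several COR genes respond in addition to abscisic acid (ABA), the hormone of drought, through a separate promoter element. COR47 and ERD10 encode dehydrins, COR15A and COR15B encode small proteins of the chloroplast stroma, KIN1 encodes a small hydrophilic protein, and RD29A and RD29B encode related hydrophilic proteins.

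The genes lie in same-strand neighbouring groups in the reference annotation (TAIR10.1). No annotated gene lies between COR15A and COR15B on chromosome 2 (7 bases apart), COR47 and ERD10 on chromosome 1 (1029 bases), RD29A and RD29B on chromosome 5 (1185 bases), or KIN1 and KIN2 on chromosome 5 (892 bases). KIN2 (AT5G15970) is a neighbour and relative of KIN1 that is not among the 10 genes. The 3 CBF genes are clustered on chromosome 4. No pair shared a stretch of 75 bases between its transcripts. Of windows of 50 bases, moved by 1 base so that they overlap, KIN1 and KIN2 shared 10. CBF1 and CBF2 shared 29 such windows, and CBF2 and CBF3 shared 8. COR15B overlaps AT2G42520, on the opposite strand, by 468 bases. As the use of strand in counting is not given in the sources used here, the values of COR15B are uncertain.

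The sites shown next carry the core of the C-repeat element, CCGAC, which CBF proteins recognise. Each is a 30-base stretch of the TAIR10.1 reference (RefSeq) around the copy nearest the coding start, written 5′ to 3′ on the strand of the gene, with the core in capitals. They are set out by neighbouring pair, because the pairs differ in how alike their sites are.
COR15A, chr2:17712216-17712245, minus strand: cacaatttcatggCCGACctgctttttttt
COR15B, chr2:17710122-17710151, minus strand: cacaacttgatggCCGACctcttttttctt
COR47, chr1:7085916-7085945, minus strand: tgatattcatctaCCGACttcaagaaataa
ERD10, chr1:7089361-7089390, minus strand: atccaccgaccgaCCGACgtaaaagaaaat
KIN1, chr5:5209801-5209830, plus strand: cgataaatagctaCCGACataaggcaaaac
KIN2, chr5:5211768-5211797, plus strand: caataaaaagctaCCGACataaggcaaaaa
RD29A, chr5:21240708-21240737, plus strand: aaaaaagatcaagCCGACacagacacgcgt
RD29B, chr5:21236872-21236901, plus strand: caataaacgtggaCCGACtaaaactaaata

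The KIN sites were identical at 27 of 30 positions and the COR15 sites at 25, against 15 for COR47 and ERD10 and 12 for RD29A and RD29B. Of the cores of these sites, that of RD29B lies before the annotated transcript and the others lie within it. CCGAC was searched on both strands in the 500 bases before the coding start, where 23.4% of 27443 protein-coding genes hold it. All 7 effector genes held it, with 4 copies in RD29A, 3 in ERD10, 2 in COR15A and 1 in each of the others. The 3 copies of ERD10 overlap in a single run, and the site shown has only the last in capitals. The CBF genes held 0 copies in this window. The core of the ABA-responsive element, ACGTG, was present in 34.9% of genes by the same search, in which a palindromic CACGTG counts on both strands. It was found 5 times in COR15A and in KIN1, 4 times in RD29B, 3 times in COR15B, and once in COR47 and in RD29A. ERD10 held 0. The evening element AAAATATCT, a motif of clock-regulated promoters that 4.02% of genes hold, was found once in CBF3, COR15A and COR15B. A match describes the sequence and does not show that a factor binds there.

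**Figure D1:**
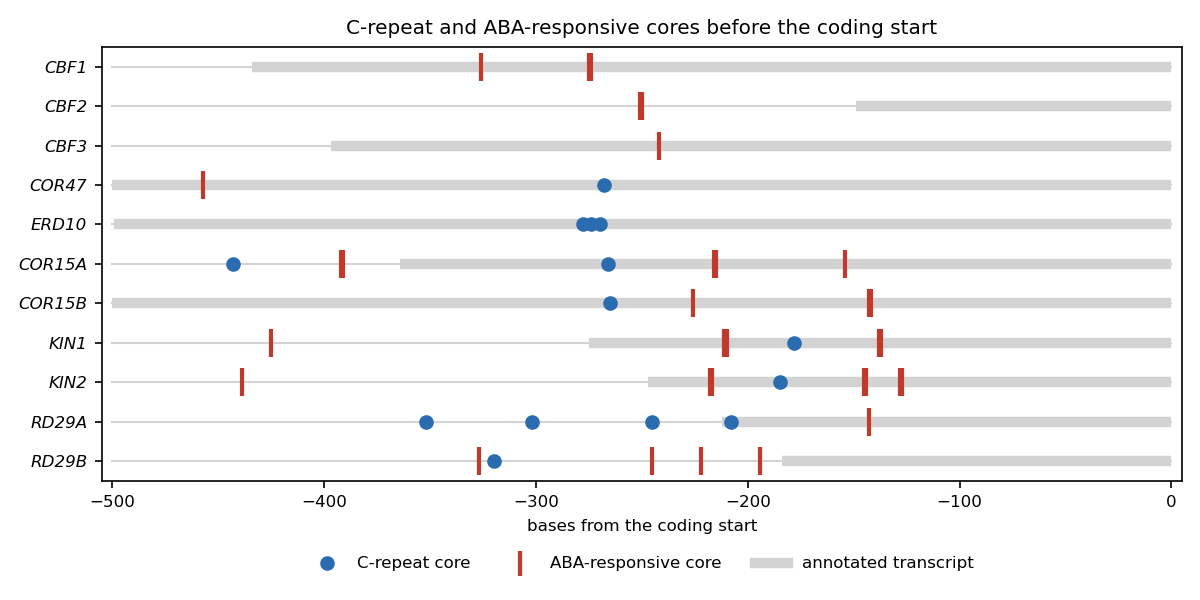
Copies of the C-repeat core (blue points) and of the ABA-responsive core (red bars) in the 500 bases before the coding start of each gene, with distance in bases on the x axis and the annotated transcript as a thick grey line. RD29A has 4 C-repeat cores and 1 ABA-responsive core, and RD29B has 1 and 4.

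The contrast within the RD29 pair is shown over the 250 bases before each annotated transcript start, with CCGAC and ACGTG (either strand) in capitals.
RD29A, chr5:21240467-21240716, plus strand: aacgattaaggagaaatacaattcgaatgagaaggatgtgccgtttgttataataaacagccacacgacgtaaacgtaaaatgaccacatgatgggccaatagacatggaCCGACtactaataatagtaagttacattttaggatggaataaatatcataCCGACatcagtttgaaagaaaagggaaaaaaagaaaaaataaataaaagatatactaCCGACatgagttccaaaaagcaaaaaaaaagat
RD29B, chr5:21236771-21237020, plus strand: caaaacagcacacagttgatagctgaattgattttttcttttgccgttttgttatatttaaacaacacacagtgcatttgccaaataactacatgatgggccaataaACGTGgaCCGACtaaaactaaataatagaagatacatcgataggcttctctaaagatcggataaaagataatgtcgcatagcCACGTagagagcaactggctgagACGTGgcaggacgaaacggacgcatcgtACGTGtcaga
The RD29A stretch holds 3 C-repeat cores and 0 ABA-responsive cores, whereas that of RD29B holds 1 and 4.

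Levels are given as normalized counts, that is, counts of reads that the authors scaled by a size factor before deposit. Gene reads per library ranged from 5726410 to 10009723. RPS6A was at 60.5 to 85.5 normalized counts in rps6a against 824 to 1062 in WT, and RPS6B at 253 to 276 in rps6b against 899 to 978, so each single mutant was low in the gene it is named for. The other paralog was at 1190 to 1250 in rps6a (RPS6B) and 1579 to 1800 in rps6b (RPS6A). In eS6A-HA RPS6A was at 1765 to 1879 and RPS6B at 72 to 95.9. In eS6A-Δ6SA they were at 1112 to 1385 and 58.4 to 67.6. Summed markers of leaf tissue were between 149758 and 201938 in every library, and root markers between 0 and 23.4, the 3 highest root sums (14.5 to 23.4) being in rps6a. Of 6 leaf markers, 4 were lower in rps6a than in WT and 1 in rps6b, where 10.8% and 11.7% of all tested genes were lower, and 0 were called in either transgenic line (limma, 1 in eS6A-HA and 2 in eS6A-Δ6SA at an unadjusted p under 0.05). The summed seed storage and embryo markers, 4 genes, were 160 to 183 in WT and 148 to 207 in eS6A-HA. They were 424 to 830 in eS6A-Δ6SA, 350 to 630 in rps6a and 116 to 355 in rps6b. Of these, CRA1 and CRU3, genes of seed storage proteins, were called higher in rps6a than in WT by limma, where 10.4% of all tested genes were called higher. The oleosin gene OLEO1 passed the filter on low values only outside WT and eS6A-HA, so its call is not counted. The part of these markers in the results was not tested. In such bulk samples, fewer cells of a type and less RNA per cell cannot be told apart.

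CBF3, an activator of the COR genes, was close to the detection limit. It had 1 read in each WT library, 3, 3 and 2 reads in the rps6a libraries, and 2, 1 and 5 in the rps6b libraries. The eS6A-Δ6SA libraries had 0, 1 and 1 reads and those of eS6A-HA 0, 1 and 2. All but 1 of these values were at or under 3 reads, so no fold change is given, and a difference between genotypes was not detectable at this depth.

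Among the effector genes, the order of WT levels per kilobase of exon was ERD10 (388 normalized counts per kb), COR47 (289), COR15A (107), RD29A (61.0), KIN1 (49.5), RD29B (25.7) and COR15B (15.8).

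COR47 was the member most clearly lower in rps6b. Its normalized counts in replicates 1, 2 and 3 were 513, 692 and 808 in WT, 454, 518 and 547 in rps6a, and 384, 367 and 409 in rps6b. In the transgenic lines they were 561, 547 and 483 in eS6A-HA and 487, 394 and 539 in eS6A-Δ6SA. All rps6b libraries lay below all WT libraries, as they did for 18.5% of all tested genes. The other groups overlapped with WT, whose replicate 1 was its lowest library. The log2 fold change of rps6b against WT was -0.77 (SE 0.13, limma adjusted p 0.000191), called in each of 24 alternatives. In rps6a it was -0.39 (limma adjusted p 0.0429), a call lost in 13 of 24 alternatives. Scaling to the spike-in RNAs made it -0.025 (limma adjusted p 0.928). With WT replicate 2, WT replicate 3, rps6a replicate 1 or rps6a replicate 2 omitted it was -0.35, -0.24, -0.31 and -0.40 (limma adjusted p 0.131, 0.197, 0.173 and 0.0798). Leaving out any of 6 libraries of other groups left it at limma adjusted p 0.0506 to 0.0638. In eS6A-Δ6SA the value was -0.49 and just missed the threshold (limma adjusted p 0.0527), whereas edgeR and DESeq2 called it (adjusted p 0.0129 and 0.0120). It was also called without WT replicate 1 (-0.67, limma adjusted p 0.00018) or eS6A-Δ6SA replicate 3 (-0.59, limma adjusted p 0.0283). In eS6A-HA, COR47 was called without WT replicate 1 only (-0.50, limma adjusted p 0.0173).

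ERD10, the other dehydrin gene, had its lowest group means in the transgenic lines. Neither eS6A-HA nor eS6A-Δ6SA was called against rps6b (limma adjusted p 0.418 and 0.0504). ERD10 had 529, 702 and 659 normalized counts in WT, 542, 501 and 529 in rps6a, and 434, 502 and 473 in rps6b. In eS6A-HA it had 472, 411 and 389, and in eS6A-Δ6SA 416, 289 and 417. Libraries of rps6b, eS6A-HA and eS6A-Δ6SA all lay below those of WT, and those of rps6a overlapped with it. The log2 fold change was -0.76 in eS6A-Δ6SA (SE 0.12, limma adjusted p 0.000302), called in each of 24 alternatives. It was -0.56 in eS6A-HA (limma adjusted p 0.0184) and -0.42 in rps6b (limma adjusted p 0.0127). The eS6A-HA call was lost when WT replicate 2, WT replicate 3, eS6A-HA replicate 2 or eS6A-HA replicate 3 was omitted (limma adjusted p 0.12, 0.0713, 0.0958 and 0.136), and the rps6b call without WT replicate 2 or 3 or rps6b replicate 1 (limma adjusted p 0.0768, 0.0559 and 0.0663). The rps6a value of -0.26 did not pass (limma adjusted p 0.14), but it did without WT replicate 1 (-0.38, limma adjusted p 0.0233).

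**Figure D2:**
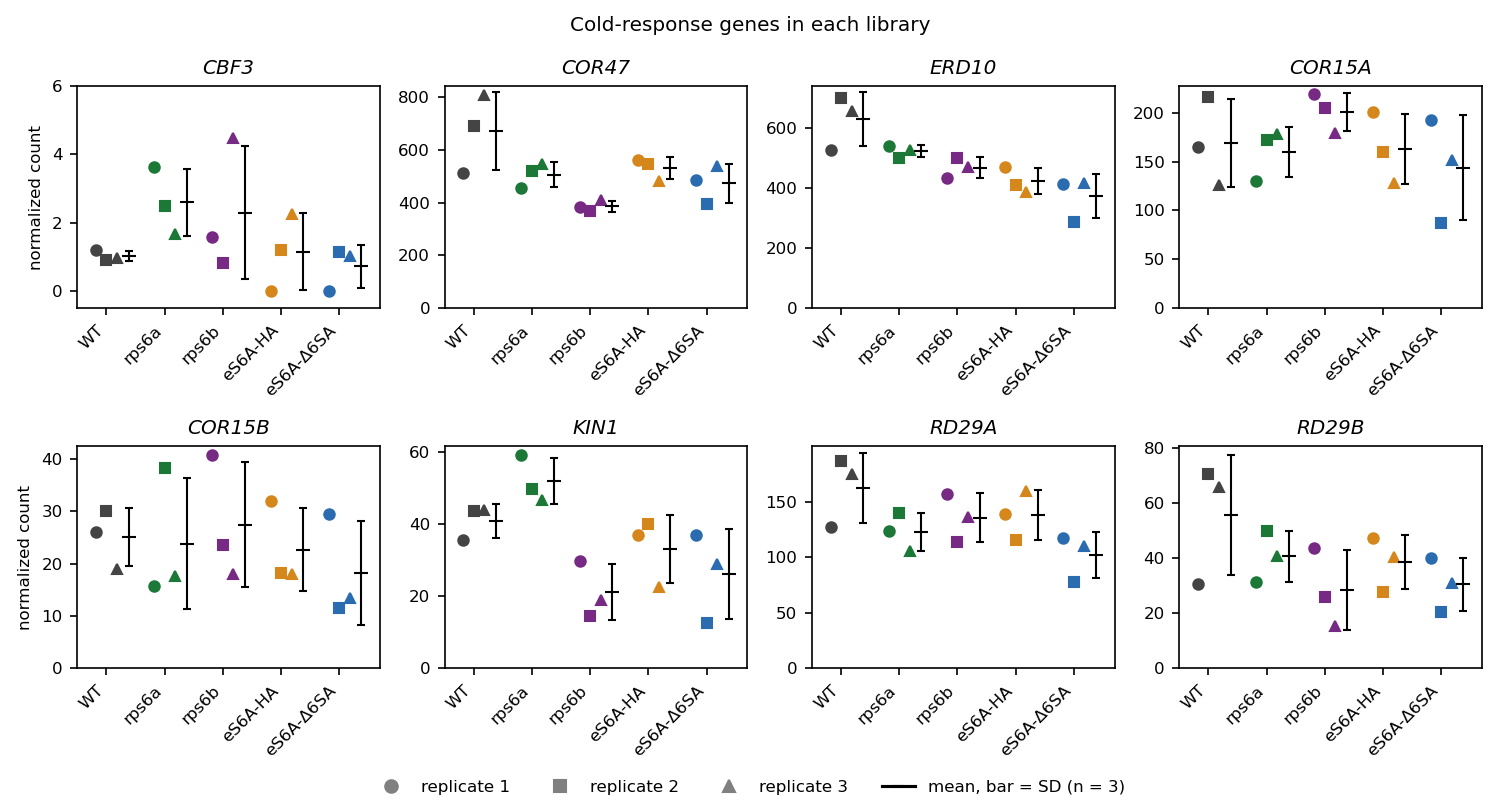
Normalized counts (y axis) of the 8 listed genes in each library, by genotype, with the symbol giving the replicate and the black mark the mean ± SD (n = 3). COR47 is lowest in rps6b, ERD10 is lower in the transgenic lines than in WT, and replicate 2 of eS6A-Δ6SA (blue square) is the lowest of its group in all 7 tested genes.

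The chloroplast protein genes varied as much within groups as between them. COR15A had 165, 216 and 126 normalized counts in WT, 131, 172 and 178 in rps6a, and 219, 205 and 180 in rps6b. In eS6A-HA it had 201, 160 and 128, and in eS6A-Δ6SA 193, 87.1 and 152. Every group overlapped with WT. Its log2 fold changes against WT ranged from -0.27 in eS6A-Δ6SA (limma 95% interval -0.91 to 0.37) to 0.28 in rps6b (-0.36 to 0.92), so changes of these sizes in either direction were not resolved.

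COR15B, less abundant, had 26.1, 29.96 and 19.1 normalized counts in WT, 15.7, 38.2 and 17.5 in rps6a, and 40.8, 23.6 and 17.97 in rps6b. It had 31.9, 18.2 and 17.98 in eS6A-HA and 29.6, 11.5 and 13.4 in eS6A-Δ6SA. The libraries of all genotypes overlapped with WT. The largest difference from WT, -0.54 in eS6A-Δ6SA, had a limma 95% interval of -1.29 to 0.21. The opposite-strand neighbour that overlaps COR15B had 7.11 to 46.3 normalized counts, a range like that of COR15B itself.

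KIN1 was the 1 member called between the single mutants by limma. It had 35.6, 43.6 and 43.9 normalized counts in WT, 59.3, 49.8 and 46.8 in rps6a, and 29.8, 14.7 and 18.9 in rps6b. In eS6A-HA it had 37.0, 40.1 and 22.5, and in eS6A-Δ6SA 36.9, 12.6 and 28.9. All rps6a libraries lay above WT and all rps6b libraries below it. Of all tested genes, 35.2% did not overlap with WT in rps6a and 36.8% in rps6b. The log2 fold change was -0.98 in rps6b against WT (SE 0.30, limma adjusted p 0.0195), lost without WT replicate 2 or 3 or rps6b replicate 2 or 3 (limma adjusted p 0.0669, 0.0652, 0.112 and 0.0696). In rps6a it was 0.33 and did not pass (limma adjusted p 0.487). Compared directly, KIN1 was higher in rps6a than in rps6b by 1.31 (SE 0.30, limma adjusted p 0.0137), a call lost without rps6a replicate 1 or rps6b replicate 2 or 3 (limma adjusted p 0.0821, 0.0896 and 0.0676).

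The neighbour KIN2 was lower in both single mutants, at -0.90 in rps6a and -1.19 in rps6b on the log2 scale (limma adjusted p 1.43e-05 and 1.59e-07), each called in all 24 alternatives. In rps6a KIN1 therefore stood at 41.2%, 29.9% and 35.4% of the KIN2 value, against 13.3%, 13.6% and 17.97% in WT and 19.6%, 13.5% and 18.1% in rps6b. The ratio was 10.9%, 14.2% and 8.30% in eS6A-HA and 19.0%, 8.66% and 15.8% in eS6A-Δ6SA. All rps6a libraries lay above those of every other group. The log2 ratio differed by 1.25 between rps6a and WT and by 1.06 between rps6a and rps6b, each with a two-sided exact permutation p of 0.1, the smallest that 3 against 3 libraries allow, and 0.3 adjusted over the 6 comparisons made. This ratio was chosen after the values were seen.

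**Figure D3:**
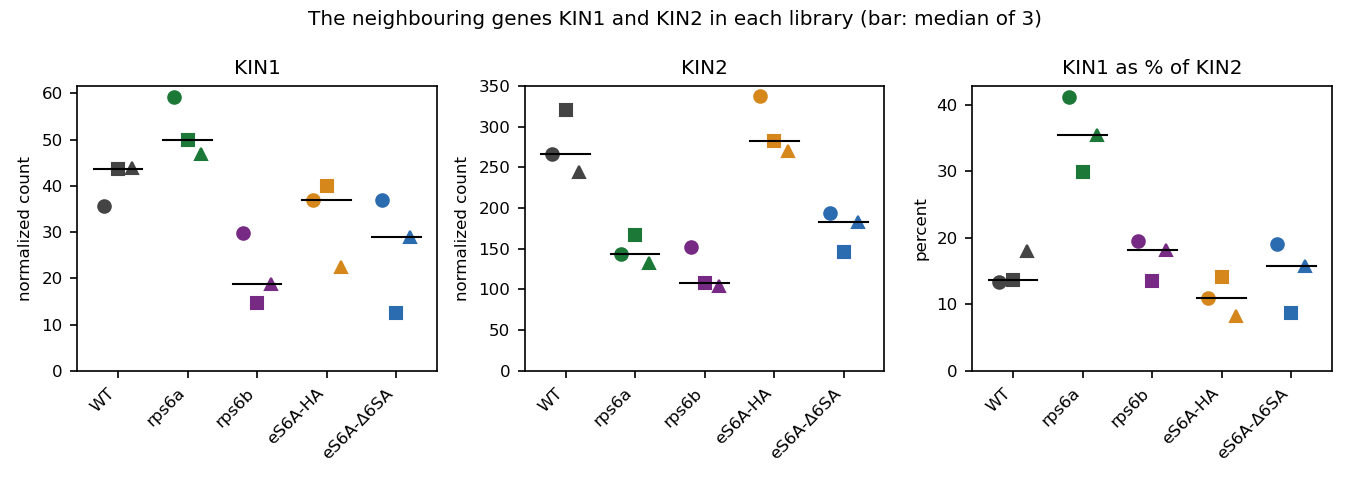
Normalized counts of KIN1 and KIN2 and KIN1 as a percentage of KIN2 (y axes) in each library by genotype, with the median of 3 libraries as a bar. The rps6a libraries have KIN1 at 29.9% to 41.2% of KIN2 and every other library is at or under 19.6%.

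RD29A, a gene of the CBF and ABA responses, had 127, 186 and 175 normalized counts in WT, 123, 140 and 105 in rps6a, and 157, 113 and 137 in rps6b. In eS6A-HA it had 139, 115 and 160, and in eS6A-Δ6SA 117, 77.9 and 110. All eS6A-Δ6SA libraries lay below all WT libraries, as they did for 8.5% of all tested genes, and the other groups overlapped with WT. The log2 fold change in eS6A-Δ6SA was -0.67 (SE 0.17, limma adjusted p 0.0254). Spike-in scaling ended the call (-0.55, limma adjusted p 0.247), as did leaving out WT replicate 2, WT replicate 3 or eS6A-Δ6SA replicate 2 (limma adjusted p 0.142, 0.104 and 0.132). Without WT replicate 1, RD29A was also called lower in rps6a (-0.56, limma adjusted p 0.0149).

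RD29B, known mainly as an ABA-responsive gene, had 30.8, 70.8 and 65.8 normalized counts in WT, 31.4, 49.8 and 40.9 in rps6a, and 43.9, 26.1 and 15.3 in rps6b. In eS6A-HA it had 47.3, 27.9 and 40.4, and in eS6A-Δ6SA 40.1, 20.6 and 30.9. Each group overlapped with WT, WT replicate 1 being well under the other WT libraries. The log2 fold change was -0.98 in rps6b (limma adjusted p 0.0747). It passed by edgeR (adjusted p 0.0101) and, with limma, without WT replicate 1 (-1.36) or rps6b replicate 1 (-1.35, limma adjusted p 0.00536 and 0.00703).

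By comparison, rps6a against WT had 1 of the 7 tested members called lower (COR47), where 21.2% of all tested genes were called, 10.8% lower. In rps6b against WT 3 were lower (COR47, ERD10 and KIN1), where 23.3% of all genes were called, 11.7% lower. In eS6A-HA against WT 1 was lower (ERD10), where 0.796% of all genes were called, 0.245% lower, and in eS6A-Δ6SA 2 were lower (ERD10 and RD29A), where 2.57% were called, 1.24% lower. The members' median log2 fold change was -0.67 in eS6A-Δ6SA, -0.42 in rps6b, -0.32 in eS6A-HA and -0.26 in rps6a. That of all tested genes lay within 0.01 of 0, where size-factor scaling itself sets it, so this contrast rests on the scaling. Under spike-in scaling the median of all genes was 0.35 in rps6a, 0.12 in eS6A-Δ6SA, -0.063 in rps6b and -0.093 in eS6A-HA. In rps6a COR15A, COR15B and ERD10 then turned positive beside KIN1, while COR47, RD29A and RD29B stayed negative. These 4 comparisons share the WT libraries, of which replicate 1 was the lowest for 5 of the 7 members and replicate 2 the highest for 5.

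**Figure D4:**
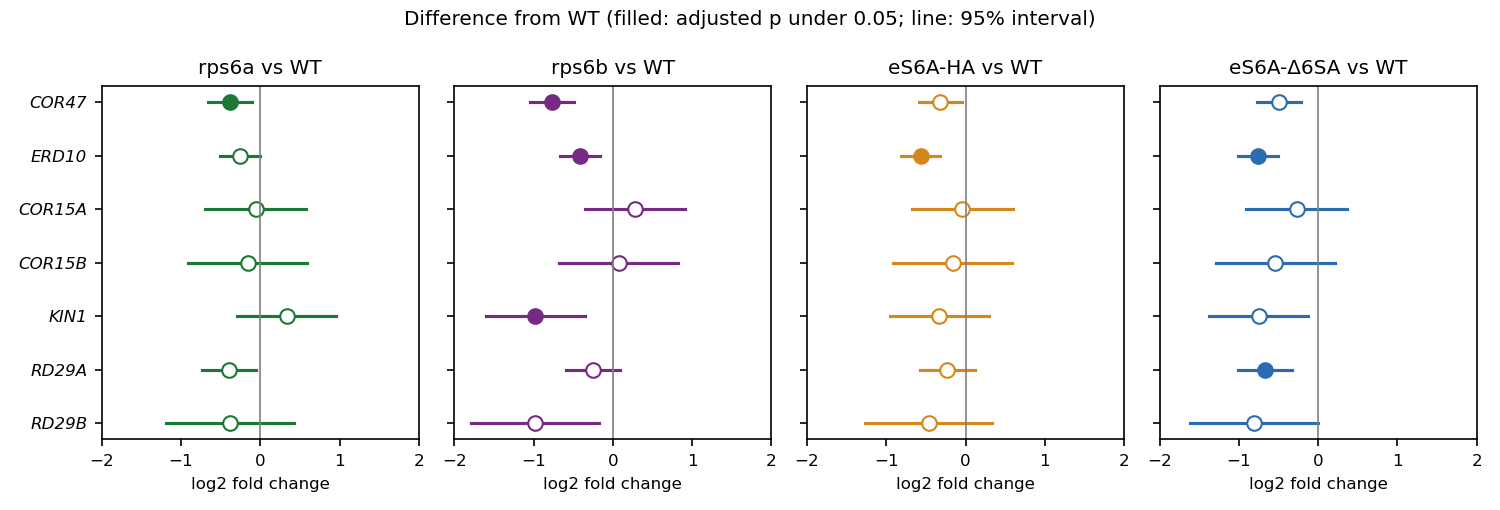
Log2 fold change against WT (x axis) of the 7 tested genes in each genotype, with the limma 95% interval as a line and a filled point where the adjusted p was under 0.05. Filled points are COR47 in rps6a, COR47, ERD10 and KIN1 in rps6b, ERD10 in eS6A-HA, and ERD10 and RD29A in eS6A-Δ6SA.

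The transgenic lines, which also differed in RPS6A counts, were not separated by these genes at the threshold. Between eS6A-Δ6SA and eS6A-HA 0 of 7 members were called by limma, edgeR or DESeq2, where 2.63% of all genes were called by limma, and 1 member, RD29A, had an unadjusted limma p under 0.05. Its log2 fold change was -0.44 (limma 95% interval -0.79 to -0.10, adjusted p 0.174). The 7 values were all negative, with a median of -0.34. Spike-in scaling turned COR47 and ERD10 positive, and leaving out eS6A-Δ6SA replicate 2 turned COR15A and KIN1 positive (0.094 and 0.019).

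Replicate 2 of eS6A-Δ6SA was the lowest library of its group for 7 of 7 members, and the lowest of all 15 libraries for COR15A, COR15B, ERD10, KIN1 and RD29A. Without it ERD10 was still called lower than WT, RD29A was -0.49 and not called, and 1 member was called in place of 2.

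In the comparisons between mutant lines, KIN1 was the 1 member called between rps6a and rps6b, where 2.92% of all genes were called. The libraries of COR47, 0.39 higher in rps6a on the log2 scale (limma adjusted p 0.14), and of COR15A, lower in rps6a, also did not overlap between them, and neither was called. Of all tested genes, 20.8% did not overlap between rps6a and rps6b. ERD10 and KIN1 were lower in eS6A-Δ6SA than in rps6a by -0.50 and -1.08 (limma adjusted p 0.00547 and 0.0174), where 12.9% of all genes were called. The KIN1 difference was lost without rps6a replicate 1 (-0.99, limma adjusted p 0.0748) or eS6A-Δ6SA replicate 2 (-0.65, limma adjusted p 0.117). COR47 was higher in eS6A-HA than in rps6b by 0.45 (limma adjusted p 0.0162), where 22.9% were called. Spike-in scaling ended this call (limma adjusted p 0.161), as did omitting rps6b replicate 1, rps6b replicate 2, eS6A-HA replicate 1 or eS6A-HA replicate 2 (limma adjusted p 0.0572, 0.0683, 0.0641 and 0.0629). No member was called by limma in eS6A-HA against rps6a (23.6% of all genes called, 2 members at an unadjusted p under 0.05) or in eS6A-Δ6SA against rps6b (16.5%, 3 members). In each of these, edgeR called 1 member and DESeq2 0.

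Across the 15 libraries, the members did not vary as a single block. As a description over libraries that share genotype and scaling, COR15A had a Pearson r of 0.76 with its neighbour COR15B and of 0.0013 with COR47, and RD29B had an r of 0.72 with COR47. The non-member genes most like COR15A were VDAC5 (r 0.85), NINJA (0.81) and SGP2 (0.80), and those most like RD29B were NPC1 (0.88), LEA4-5 (0.86) and AT1G08230 (0.85).

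Related gene lists were then described in the same comparisons. Most ABA response genes were lower in the single mutants. In rps6a 12 of its 15 tested genes were lower and in rps6b 13, with medians of -0.75 and -0.87, where 10.8% and 11.7% of all genes were lower. In eS6A-HA 1 was lower and in eS6A-Δ6SA 6, with medians of -0.22 and -0.43, where 0.245% and 1.24% of all genes were lower, and none was higher in any of the 4. NCED3, an enzyme of ABA synthesis, had 204 ± 49.3 normalized counts in WT and fell in rps6a to 86.1 ± 10.5, in rps6b to 88.5 ± 17.6 and in eS6A-Δ6SA to 110.4 ± 22.7 (SD, n = 3; limma adjusted p 4.46e-06, 5.79e-06 and 0.00229). RD26, a NAC transcription factor, fell by 1.19 in rps6b on the log2 scale (limma adjusted p 0.000197), and ABF2, a factor that binds the ABA-responsive element, was at -0.81 in eS6A-Δ6SA (limma adjusted p 0.000286). ABF3, a relative of ABF2, was the 1 gene called in eS6A-HA (-0.57, limma adjusted p 0.00242), a call lost without WT replicate 2 (limma adjusted p 0.0512).

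The list of other cold-regulated genes held calls in both directions. In rps6a 5 of 12 tested genes were lower and 2 higher, where 10.8% of all genes were lower and 10.4% higher. In rps6b 5 were likewise lower and 2 higher, where the shares were 11.7% and 11.6%. In eS6A-HA limma called 0, with 2 at an unadjusted p under 0.05, and in eS6A-Δ6SA 1 was lower, KIN2 (-0.67, limma adjusted p 0.00441), a call that ended under spike-in scaling and without WT replicate 2 (limma adjusted p 0.0818 and 0.0511). GolS3, a galactinol synthase whose cold induction involves CBF factors, had 5.26 ± 2.82 normalized counts in WT, 19.3 ± 5.67 in rps6a and 16.9 ± 5.66 in rps6b (SD, n = 3; limma adjusted p 0.00259 and 0.00689). It passed the filter on low values only through these single mutants, so the count of higher genes without it is 1 in each. Its rps6b call was lost without WT replicate 2 (limma adjusted p 0.059). ERD6, a sugar transporter gene, was higher in rps6a by 1.27 and in rps6b by 0.64 (limma adjusted p 5.98e-06 and 0.0138). Its rps6b call was lost in 5 of 24 alternatives.

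Of 12 tested genes upstream of the CBF genes, 2 were lower in rps6a and 3 in rps6b, where 10.8% and 11.7% of all genes were lower. None was higher in either single mutant. None was called by limma in either transgenic line, where 3 in eS6A-HA and 1 in eS6A-Δ6SA had an unadjusted p under 0.05. PIF7, a phytochrome-interacting factor that represses CBF genes, was lower in rps6b, with a log2 difference of -0.68 (limma adjusted p 2.59e-06). Among the clock genes, 4 of 10 tested were lower and 2 higher in rps6a, 4 and 1 in rps6b, and 2 and 1 in eS6A-Δ6SA. Of all genes, 10.8% were lower and 10.4% higher in rps6a, 11.7% and 11.6% in rps6b, and 1.24% and 1.33% in eS6A-Δ6SA. In eS6A-HA, where 0.551% of all genes were higher and 0.245% lower, limma called 0 clock genes, with 2 at an unadjusted p under 0.05. LHY and CCA1, morning factors that activate CBF genes, were at -1.08 and -1.07 in rps6a (limma adjusted p 3.62e-13 and 1.13e-12). In rps6b CCA1 and the clock gene RVE8 were at -0.94 and -0.93 (limma adjusted p 2.18e-11 and 4.82e-08). Mean normalized counts of LHY were 859 in rps6b against 1512 in WT. In eS6A-Δ6SA LHY and CCA1 were at -0.81 and -0.45 (limma adjusted p 3.41e-09 and 0.000377). Spike-in scaling ended the CCA1 call in eS6A-Δ6SA (limma adjusted p 0.234). GI, an evening-phased clock gene, was higher in rps6a by 0.82, in rps6b by 0.72 and in eS6A-Δ6SA by 0.62 (limma adjusted p 4.33e-06, 3.50e-05 and 0.00195).

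**Figure D5:**
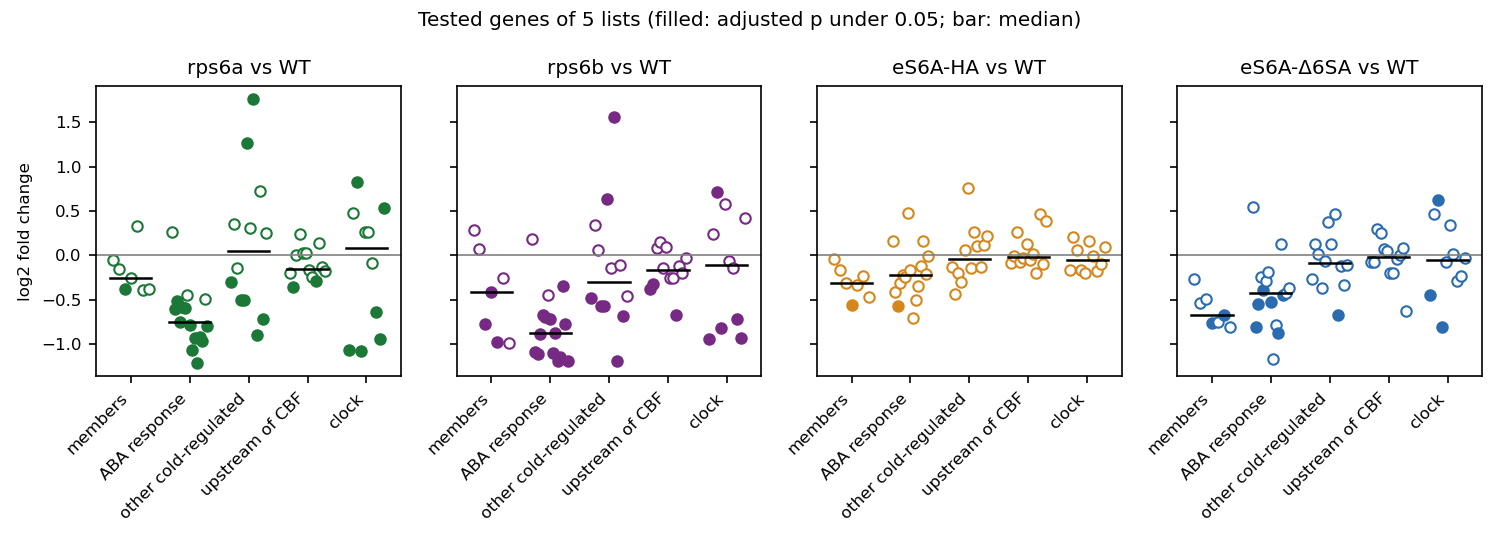
Log2 fold change against WT (y axis) of each tested gene in the member list and 4 related lists, by genotype, filled where the limma adjusted p was under 0.05, with the median as a bar. In rps6a and rps6b the ABA response genes have medians of -0.75 and -0.87, against -0.26 and -0.42 for the members.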

How the data were processed

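The authors deposited 1 signal value per gene for every library, a read count scaled by that library's size factor, per the file headers. The submitters' processing notes name STAR 2.7.6a, featureCounts 2.0.0, DESeq2 1.26.0 and TAIR10, without roles; the annotation, strand and filters are not given in the sources used here. Per the labels' protocols, libraries were depleted of ribosomal RNA, had spike-in RNAs added and were sequenced from both ends over 75 bases. All positive values (100%) were whole reads within 0.01, and 77 spike-in rows (4.39% to 6.08% of reads) stayed out of tests.

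Differences were tested by limma 3.58.1 (R 4.3.3; trend, robust) on log2(normalized count + 1) in 1 fit of 15 libraries with 10 contrasts, after genes averaging under 10 were removed (16335 left). P-values were two-sided and Benjamini-Hochberg adjusted within a comparison over all tested genes, and an adjusted p under 0.05 was called. This scale understates changes of low genes. Alternatives were edgeR 4.0.16 and DESeq2 1.42.0 on recovered reads (against WT, edgeR had 4034 calls for rps6b, 3575 for rps6a, 414 for eS6A-Δ6SA and 109 for eS6A-HA), other scalings, pseudocount 5, no filter, 2 groups only, a replicate block and leaving out each library. Limma was also tested on 15 libraries simulated with means and spread taken over all groups. In these, 200 of 16335 genes were changed 2-fold in rps6b. Against WT, limma recovered 86% of the changed genes with 9 false calls. Smaller changes, such as those of the members against WT, were not simulated. Replicates differed beyond sampling noise (chi-square per degree of freedom 1.66 to 4.98).

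Members and lists were chosen with earlier results of these data known. Of each related list, at most the 2 largest called rises and falls against WT could be named, and for COR15A and RD29B the 3 most correlated genes. KIN2 is also given beside KIN1, chosen after its values were seen. Sequences and positions come from TAIR10.1 by locus identifier.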

Additional observations from a re-analysis of the deposited data

How the results depend on the processing

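Same-numbered libraries showed no strong shared deviation: over 30 such pairs the correlation of deviations from the group means ran from -0.156 to 0.182. This cannot show whether they were grown or processed together, which the labels do not say. With the replicate number as a block the count of called members was 3 in eS6A-Δ6SA against WT, COR47 joining at limma adjusted p 0.0259, and equal to the main count in the other 9 comparisons.

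Scaling to the spike-in RNAs moved the median of all genes by 0.35 in rps6a against WT, 0.12 in eS6A-Δ6SA against WT, 0.21 in eS6A-Δ6SA against eS6A-HA, 0.41 in rps6a against rps6b, 0.17 in eS6A-Δ6SA against rps6b, -0.24 in eS6A-Δ6SA against rps6a and -0.45 in eS6A-HA against rps6a. It turned positive COR15A (0.30), COR15B (0.19), ERD10 (0.10), CAMTA2 (0.0023) and PIF7 (0.075) in rps6a against WT, COR47 (0.041) and ERD10 (0.017) in eS6A-Δ6SA against eS6A-HA, and COR15A (0.082), COR15B (0.17) and RD29A (0.28) in rps6a against rps6b. The members called under it numbered 0 in rps6a against WT, 1 in eS6A-Δ6SA against WT, 3 in rps6a against rps6b, 2 in eS6A-HA against rps6a and 0 in eS6A-HA against rps6b. Other settings that moved the count gave 0 in rps6a against WT (upper quartile scaling, 2 groups only) and 2 in rps6a against rps6b (2 groups only). They gave 1 (upper quartile, TMM, edgeR) or 2 (2 groups only) in eS6A-HA against rps6a, and 1 in eS6A-Δ6SA against rps6b (pseudocount 5, upper quartile, TMM, edgeR). The count of all called genes became 6024 under spike-in scaling in rps6a against WT (3468 in the main test, with 95.1% of calls higher against 49.1%), 49 in eS6A-HA (130), 255 in eS6A-Δ6SA (420, with 88.6% higher against 51.9%), 832 between the transgenic lines (429) and 6949 in rps6a against rps6b (477). It became 8358 in eS6A-HA against rps6a (3852, with 3.03% higher against 53.8%) and 2443 in eS6A-HA against rps6b (3748). The causes were not tested.

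Leaving out 1 library at a time gave, against WT, 1 to 3 called members for eS6A-Δ6SA, 0 to 2 for eS6A-HA, 1 to 4 for rps6b and 0 to 3 for rps6a. It gave 0 to 2 in rps6a against rps6b, 0 to 2 in eS6A-HA against rps6a, 1 to 2 in eS6A-Δ6SA against rps6a, 0 to 2 in eS6A-HA against rps6b, 0 to 3 in eS6A-Δ6SA against rps6b and 0 in eS6A-Δ6SA against eS6A-HA. All called genes ranged from 65 to 150 in eS6A-HA and from 250 to 450 in eS6A-Δ6SA against WT, from 241 to 570 between the transgenic lines and from 293 to 558 in rps6a against rps6b. Signs turned within the range for COR15A in rps6a (-0.25 to 0.14), eS6A-HA (-0.23 to 0.15) and eS6A-Δ6SA (-0.52 to 0.053) against WT and in eS6A-Δ6SA against eS6A-HA (-0.48 to 0.094). They also turned for COR15B in rps6a (-0.54 to 0.073) and rps6b (-0.25 to 0.32) against WT and in rps6a against rps6b (-0.61 to 0.089), for KIN1 in eS6A-Δ6SA against eS6A-HA (-0.72 to 0.019), and for the log2 ratio of KIN1 to KIN2 in eS6A-Δ6SA against WT (-0.34 to 0.23). Over the 24 alternatives of all 70 fold changes of members, 1555 of 1680 values kept their direction and side of the threshold, 38 lost the call, 44 gained it and 43, from 25 fold changes, changed sign. Of those sign changes 23 were in 12 fold changes between mutant lines that are not described singly. CBF3 was below the filter.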
